A study of Mus musculus with 24 samples.

Results

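Ataxin-1 (gene Atxn1) is the protein whose polyglutamine expansion causes spinocerebellar ataxia type 1 (SCA1). The genes followed here are Atxn1, its paralog Atxn1l and the partners Cic, Rbm17, U2af2 and Hdac3, chosen because their proteins bind ATXN1 or work in complexes with it. The choice was made with earlier results of these data known. These 6 genes were found among the 54232 genes listed for each library by their Ensembl identifiers, and all 6 were among the 22502 genes with enough counts to be tested. RNA from the cerebella of 24 mice aged 6 weeks was sequenced, 1 library per mouse. The 8 WT mice carried unexpanded alleles (2Q/2Q), and the other genotypes held 4 mice each. SCA1 mice carried a long expanded repeat knocked into 1 copy of the mouse gene, opposite an unexpanded copy. SCA1 S776A mice had S776A on the expanded copy, S776A double mice had it on both copies, and WT S776A homozygous mice had it on both of their unexpanded copies. S776A replaces the serine at which ATXN1 is phosphorylated with an alanine. It was made by genome editing together with synonymous changes, and all alleles are driven by the gene's own promoter in every cell that uses it. A count of Atxn1 fragments holds the product of both alleles of a mouse together.

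ATXN1 is a nuclear protein that regulates transcription and binds RNA. With Capicua (CIC), a DNA-binding repressor of genes that growth factor signaling turns on, it forms a large complex through a domain named AXH, which the paralog ATXN1L shares and through which ATXN1L also binds CIC. The other complex described for ATXN1 contains the splicing factor RBM17 and depends on the region around the phosphorylated serine, to which U2AF2, the factor that recognizes the pyrimidine-rich tract at the end of introns, also binds, while HDAC3 is a histone deacetylase of nuclear corepressor complexes. The counts measure the RNA of these genes and say nothing about the amount or phosphorylation of the proteins.

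The edited codon is shown because it is what separates SCA1 from SCA1 S776A mice. Atxn1 lies on the minus strand of chromosome 13 (GRCm38, chr13:45549755-45965008). In the reference, the serine codon falls in the last exon, exon 8 of 8, at chr13:45557178-45557180, and is codon 751 of the 791 codons of this transcript, since residue numbers differ with the length of the repeat. It was found as the single place where the reading frame spells arginine, arginine, tryptophan and serine in a row, a run with 0 copies in Atxn1l. The 63 bases around it on the coding strand (chr13:45557148-45557210), with the serine codon in capitals, read:
Atxn1: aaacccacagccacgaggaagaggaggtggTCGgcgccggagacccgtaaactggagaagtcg

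Atxn1l lies on the minus strand of chromosome 8 (chr8:109726451-109737739). The proteins predicted from the longest coding transcripts are 791 residues (ATXN1) and 687 residues (ATXN1L) long, and 41.2% of their 641 aligned residues are identical. The window of 21 residues most alike between them lies in the AXH domain, the part that binds CIC, with 17 of 21 residues and all but 10 of 63 bases identical. It is shown to let the reader judge how far counts of the paralogs can be told apart, with the differing bases in capitals (Atxn1 chr13:45566711-45566773 in exon 7, Atxn1l chr8:109732171-109732233 in exon 4, coding strands):
Atxn1: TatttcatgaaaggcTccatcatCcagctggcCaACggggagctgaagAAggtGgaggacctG
Atxn1l: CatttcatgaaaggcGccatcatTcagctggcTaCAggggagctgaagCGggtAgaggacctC

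The last 21 codons before the stop, which follow the serine in ATXN1, share 16 of 21 residues while 19 of 63 bases differ. They lie at chr13:45557058-45557120 for Atxn1 and chr8:109731568-109731630 for Atxn1l, again with the differing bases in capitals:
Atxn1: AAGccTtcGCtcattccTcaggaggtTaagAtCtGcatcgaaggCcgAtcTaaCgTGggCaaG
Atxn1l: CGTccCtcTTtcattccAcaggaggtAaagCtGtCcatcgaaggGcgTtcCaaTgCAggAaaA
The longest run of identical bases anywhere in the 2 transcripts was 17 bases.

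Between 62163600 and 88430180 fragments per library were counted on genes. The libraries fell into 2 sequencing batches, inferred from the shares of fragments that mapped to no gene or to several places. Batch 1 held 4 WT mice and all SCA1, SCA1 S776A and S776A double mice, and batch 2 held 4 WT mice and the WT S776A homozygous mice, so the 4 WT mice sequenced with a genotype served as its controls. Markers of Purkinje, granule, glial and oligodendrocyte cells were above 1 CPM (the usual scaling of a count by the size of its library, with TMM factors) in every group. The cerebellum's own Purkinje markers (6 genes) summed to 7632 to 8896 CPM in the WT mice of batch 1, and to 5662 to 6440 CPM in SCA1, 6477 to 7531 CPM in SCA1 S776A and 6253 to 8424 CPM in S776A double mice. Choroid plexus markers (5 genes) varied between 19.9 and 5113 CPM over all mice.

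In WT cerebellum the 6 genes covered a wide range of levels per length. In CPM divided by the length of exon in kilobases (FPKM), U2af2 was highest at 38.2 ± 1.98 (SD, n = 8), followed with no overlap by Rbm17 at 26 ± 1.64 FPKM (SD, n = 8). Cic followed at 19.5 ± 3.65 FPKM (SD, n = 8) and Hdac3 at 17.6 ± 2.22 FPKM (SD, n = 8). Both were lower in batch 2, and only in batch 1 were they apart without overlap. There Cic lay at 21.7 to 23.2 FPKM and Hdac3 at 18.9 to 20.1 FPKM in WT mice. In the WT mice of batch 2 they overlapped, at 14.5 to 18.1 and 14.8 to 16.5 FPKM, with means of 16.2 and 15.6 FPKM. Atxn1l had 8.09 ± 0.563 FPKM (SD, n = 8), above the 3.85 ± 0.37 FPKM (SD, n = 8) of Atxn1 in WT mice with no overlap, since the highest Atxn1 value was 4.45 and the lowest Atxn1l value 7.48. So the paralog was the more abundant RNA per length, although both had similar CPM, because the annotated exons of Atxn1 cover 13914 bases and those of Atxn1l 7526. Each gene was well counted. The lowest count of any library was for Atxn1, at 3288 to 5924 fragments per library, and the highest for Cic, at 3997 to 20755.

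**Figure D1:**
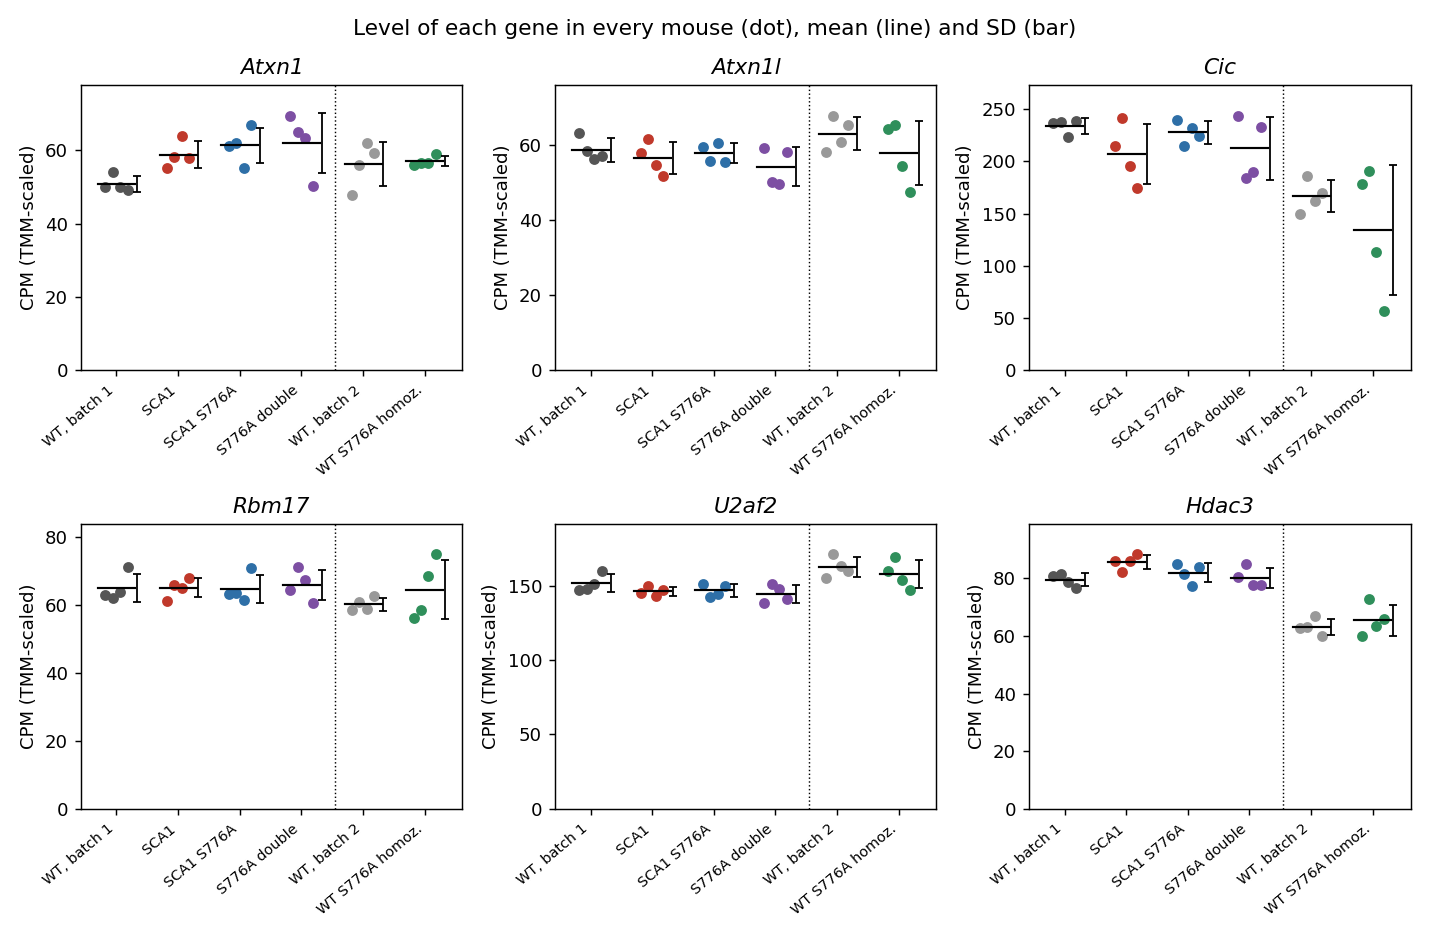
Level of each of the 6 genes in TMM-scaled CPM (vertical axes, from 0) in every mouse (dots), by genotype and batch, with the mean as a line and the SD as a bar, and a dotted line between the batches. Atxn1 lay above the WT mice of batch 1 in 11 of the 12 mice with the expanded allele, Cic spread most, down to 56.3 CPM in 1 WT S776A homozygous mouse, and Cic and Hdac3 were lower in batch 2.

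None of the 6 genes passed the threshold (adjusted p under 0.01 and absolute log2 fold change over 0.5) in any genotype against WT, by the quasi-likelihood F-test of edgeR and Benjamini-Hochberg adjusted p-values. Of all genes tested, 0.173% were called in SCA1, 0.0133% in SCA1 S776A and 0.0267% in S776A double mice, and 0% in WT S776A homozygous mice, where 2246 genes were at an unadjusted p under 0.05. In the last genotype DESeq2 with the batch as a covariate also called 0, and ComBat-seq followed by DESeq2, the procedure of the study, called 99. With so few genes called in all, 0 of 6 is near the background. The gene with the lowest p among the 6 was Atxn1 in each genotype with the expanded allele.

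Atxn1, the gene that carries the alleles, was at 50, 54.1, 50.1 and 49.1 CPM in the 4 WT mice of batch 1. The SCA1 mice had 55.2, 58.3, 63.9 and 57.9 CPM. All 4 SCA1 mice thus lay above all 4 WT mice. Atxn1 was at 61.1, 62, 55.3 and 67 CPM in SCA1 S776A mice, again with every mouse above WT. In S776A double mice it was at 69.5, 65.1, 63.3 and 50.3 CPM, so that 3 mice lay above WT and 1 within the WT range.

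Against WT, the log2 fold change of Atxn1 was 0.21 (standard error 0.08, SCA1 mice, 95% interval 0.04 to 0.38, adjusted p = 0.453). It was 0.27 in SCA1 S776A mice (standard error 0.08, 95% interval 0.10 to 0.44, adjusted p = 0.87). S776A double mice had 0.29 (standard error 0.08, 95% interval 0.12 to 0.46, adjusted p = 0.398). In each comparison Atxn1 had an unadjusted p under 0.05 (0.0178, 0.00318 and 0.00189), a level reached by 8.25%, 3.93% and 6.93% of all genes tested. Genes in which every mouse lay above WT made up 3.77% of the tested genes in SCA1 and 1.87% in SCA1 S776A mice. The 3 comparisons share their 4 WT mice, so a low value in those WT mice would move all of them together.

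For the single gene, an exact two-sided permutation test of log2 CPM gave p = 0.0286 in SCA1 and in SCA1 S776A mice, the smallest p that 4 mice against 4 allow, and p = 0.0571 in S776A double mice. Measured as a ratio to Gapdh in the same library, the difference in SCA1 mice was 0.12 on the log2 scale (exact permutation p = 0.114). In SCA1 S776A and S776A double mice it was 0.23 and 0.20 (exact permutation p = 0.0571 and 0.114), so neither former p under 0.05 remained. Gapdh itself averaged 1521, 1461 and 1504 CPM in these genotypes against 1425 CPM in the WT mice of batch 1, with overlapping ranges. With the 12 mice that carry the expanded allele pooled, the log2 fold change was 0.26 (standard error 0.07, 95% interval 0.11 to 0.40, adjusted p = 0.183), with 11 of 12 mice above every WT mouse of the batch. Of all genes tested, 0.0978% were called in this pooled comparison, and 0 of the 6. Without the S776A double mouse at 50.3 CPM, the adjusted p of this pooled comparison was 0.0306. That of S776A double mice was 0.0534, with a log2 fold change of 0.37. This mouse was the only one of the 12 not above every WT mouse, so its omission could only widen the difference. Omitting any other mouse of the groups compared gave, in the same edgeR test, adjusted p of 0.139 to 0.537 pooled and 0.519 to 0.696 in S776A double mice. After ComBat-seq and DESeq2 the pooled adjusted p was 0.000751, at the same log2 fold change of 0.26, which is below the fold threshold. That procedure adjusts the counts with the genotypes known and then tests them as raw counts, so both steps use the same mice. Its controls were the WT mice of both batches.

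No difference in Atxn1 RNA between the expanded-allele genotypes passed the test. Its log2 difference was 0.06 between SCA1 S776A and SCA1 mice (95% interval -0.11 to 0.23), 0.08 between S776A double and SCA1 mice (95% interval -0.09 to 0.25) and 0.02 between S776A double and SCA1 S776A mice (95% interval -0.15 to 0.19). Single mice moved these values, since without the S776A double mouse at 50.3 CPM the difference from SCA1 mice was 0.17 (standard error 0.07, unadjusted p = 0.0322, adjusted p = 1), and without the one at 69.5 CPM it was 0.02. Against SCA1 S776A mice the same omissions gave 0.10 and -0.05. In these 3 comparisons 0 of the 6 genes was called, against 0.00444%, 0% and 0% of all genes tested, with 979, 819 and 666 genes at an unadjusted p under 0.05 (DESeq2 with the batch as a covariate called 4, 1 and 0 genes).

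On the unexpanded alleles, Atxn1 was at 55.9, 56.6, 56.6 and 59 CPM in WT S776A homozygous mice. The WT mice of batch 2 had 47.9, 56.1, 62 and 59.2 CPM and enclosed them. The log2 fold change was 0.02 (standard error 0.08, 95% interval -0.15 to 0.19, adjusted p = 0.947). These WT mice reached 62 CPM, within the range of the mice with the expanded allele, and their log2 difference from the WT mice of batch 1 was 0.15 (95% interval -0.02 to 0.32, adjusted p = 0.152), so a level of Atxn1 could be compared only within a batch.

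Gmpr, which encodes a GMP reductase, overlaps the end of Atxn1 on the opposite strand over 375 exon bases, 2.7% of the Atxn1 exon bases, and fragments there could not be given to either gene by the unstranded count. Summing the counts of both strands raised Atxn1 to between 107% and 109% of its unstranded count, and left the other 5 genes at 100%. With that sum the Atxn1 log2 fold changes were 0.21, 0.28 and 0.29 in SCA1 mice, SCA1 S776A mice and S776A doubles, close to those above. The sum also credits Atxn1 with Gmpr fragments from the shared bases, so it cannot tell the genes apart. Gmpr itself differed from WT by 0.17 on the log2 scale in SCA1 mice (unadjusted p = 0.0193), and its part in the Atxn1 values was not tested. Fewer cells that use a gene and less of its RNA per cell cannot be told apart in bulk tissue. Markers of some cell types also differed from WT. In SCA1 mice all 6 Purkinje markers had negative log2 fold changes (median -0.29), opposite in direction to Atxn1. All 5 oligodendrocyte markers had positive log2 fold changes there (median 0.20), with Mbp at 0.23 and Mobp at 0.29 (unadjusted p = 0.0036 and 0.0376). They summed to 6768 to 8318 CPM in SCA1 against 6184 to 7406 CPM in WT mice. Medians of the granule cell, Bergmann glia and astrocyte, and microglia markers in SCA1 mice were -0.06, 0.01 and 0.07. Of the 5 oligodendrocyte markers, 4 had positive values in SCA1 S776A and in S776A double mice, with medians of 0.12 and 0.05. All 5 choroid plexus markers had positive log2 fold changes in each genotype with the expanded allele. They were at 0.87 to 1.56 in SCA1 mice, 0.65 to 1.15 in SCA1 S776A mice and 0.11 to 0.67 in S776A doubles. Standard errors ran from 0.63 to 1.61, and none had an unadjusted p under 0.05. Every oligodendrocyte and choroid plexus marker overlapped WT in these genotypes. The part of these markers in the Atxn1 values was not tested.

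The paralog Atxn1l, whose protein can take the place of ATXN1 in the complex with CIC, was at 63.3, 58.4, 56.3 and 57 CPM in the WT mice of batch 1 and at 58, 61.7, 54.8 and 51.7 CPM in SCA1 mice. In SCA1 S776A mice it was at 59.4, 55.8, 60.7 and 55.6 CPM, and in S776A double mice at 59.2, 50.1, 49.7 and 58.2 CPM. The groups overlapped in every comparison. Its log2 fold changes were -0.06, -0.02 and -0.11 (standard error 0.09 each, adjusted p between 0.794 and 1), with 95% intervals that together ran from -0.29 to 0.15. In the WT S776A homozygous mice it was at 64.2, 65.3, 54.5 and 47.4 CPM against 58.3, 67.9, 60.8 and 65.4 CPM in WT, with a log2 difference of -0.13 (standard error 0.09, adjusted p = 0.572). Here 2 homozygous mice lay below every WT mouse and 2 did not.

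**Figure D2:**
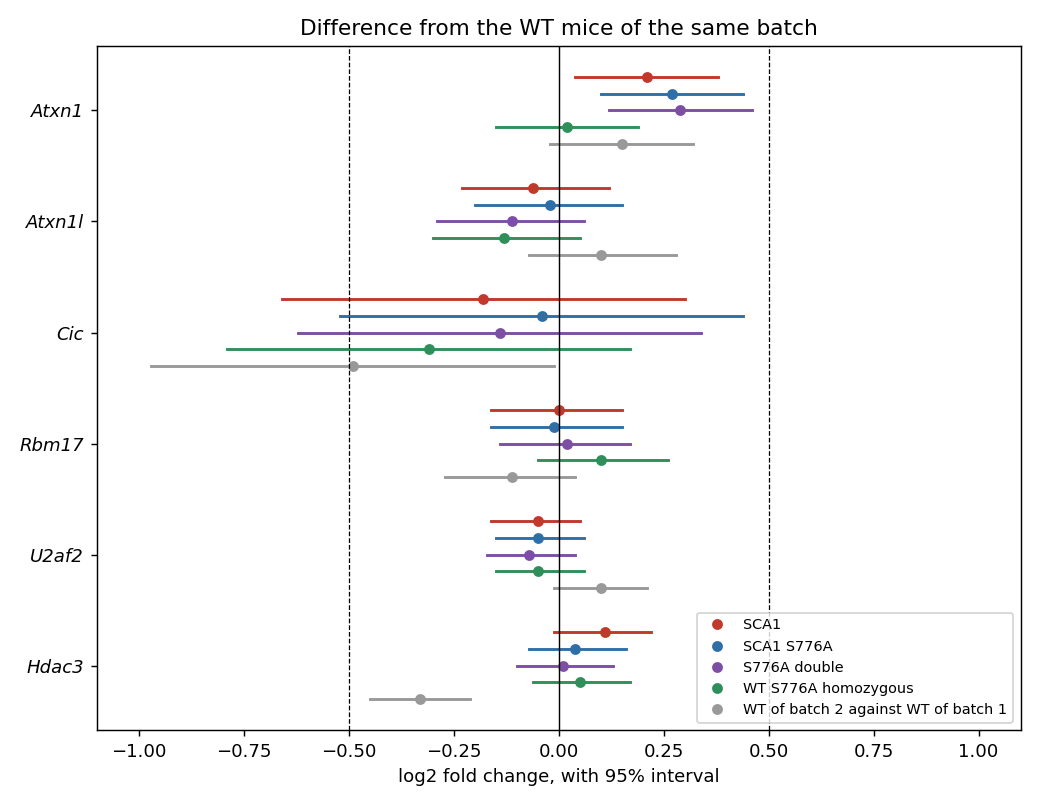
Log2 fold change of each of the 6 genes (dots, horizontal axis) with its 95% interval (lines) in each genotype relative to batch-matched WT mice, and in the WT mice of batch 2 against those of batch 1. The dashed lines mark the fold threshold of 0.5, and no genotype's dot lies outside them. The Atxn1 intervals of the genotypes with the expanded allele lie above 0, and those of Cic, with a standard error from all 24 mice, are the widest.

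Cic, the gene of the repressor Capicua (chr7:25267704-25294159, plus strand), was the most variable of the 6 over all mice. About its genotype and batch means its log2 CPM had an SD of 0.36, which placed it at the 98.7 percentile of the 11649 genes with a mean of at least 5 CPM. The median of those genes was 0.12. U2af2 (SD 0.06) and Hdac3 (SD 0.07) lay at the 3.51 and 9.69 percentiles, and Atxn1, Atxn1l and Rbm17 between the 42.5 and 58.9 percentiles. The WT S776A homozygous mice held 86.3% of the squared deviations of Cic. Without them, a choice made after seeing the data, its SD was 0.14 (85.1 percentile), no more than that of Atxn1 (0.14, 81.7 percentile), and the median gene had 0.09.

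The WT mice of batch 1 had 237, 238, 223 and 239 CPM of Cic. In SCA1 mice it was at 215, 242, 196 and 175 CPM, in SCA1 S776A mice at 240, 215, 232 and 224 CPM, and in S776A double mice at 244, 184, 190 and 233 CPM. In each of these genotypes 1 mouse lay above every WT mouse, and 3, 1 and 2 lay below. The log2 fold changes were -0.18, -0.04 and -0.14 (standard error 0.23 each, adjusted p = 0.882, 1 and 0.901), with 95% intervals from -0.66 to 0.44. The standard error was estimated from all 24 mice. In a fit of the mice of batch 1 alone the log2 fold changes were again -0.18, -0.04 and -0.14, now with a standard error of 0.09 each and 95% intervals of -0.38 to 0.02, -0.24 to 0.15 and -0.33 to 0.06, each short of the fold threshold.

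WT S776A homozygous mice had 178, 191, 113 and 56.3 CPM of Cic, and the WT mice of batch 2 had 150, 186, 162 and 170 CPM. Of the homozygous mice 2 lay below every WT mouse, 1 above and 1 within. The log2 fold change was -0.31 (standard error 0.23, 95% interval -0.79 to 0.17, adjusted p = 0.602). A single library decided this value, since without the mouse at 56.3 CPM the log2 fold change was -0.06 (standard error 0.14). Leaving out another homozygous mouse instead gave -0.24 to -0.53.

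The mouse at 56.3 CPM stood apart in other members too, with the lowest Atxn1l value (47.4 CPM) and the highest Rbm17 value (74.8 CPM) of all 24 mice. Its library had 6.73% of gene fragments on mitochondrial genes, the highest share. The mouse at 113 CPM came next with 4.82%, against 3.01% to 4.38% in all others, and the part of that share in the Cic values was not tested. Without the first of these mice, the log2 fold changes of Atxn1l and Rbm17 in WT S776A homozygous mice were -0.04 and 0.02.

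Cic and Atxn1l varied together from mouse to mouse. Over the 16 mice of batch 1, Pearson's r of their log2 CPM was 0.88 and Spearman's rho 0.82. Without the 2 mice farthest from the median of Cic, r was 0.83, and after the genotype means were subtracted it was 0.91. Over the 8 mice of batch 2, r was 0.96 and rho 0.88, resting in part on the mouse with the lowest value of both genes. Among the other 11648 genes with at least 5 CPM, 138 (1.19%, Atxn1l included in the share) followed Cic at least as closely. These are descriptions, and libraries of one tissue share depth, composition and RNA quality. Atxn1 itself had r of -0.34 with Cic and -0.41 with Atxn1l over the same 16 mice. Of all pairs of members, Cic and Atxn1l had the highest r in batch 1, so the pair described is the top of several. The other pairs ran from -0.58 (Atxn1l and Rbm17) to 0.60 (Rbm17 and U2af2).

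**Figure D3:**
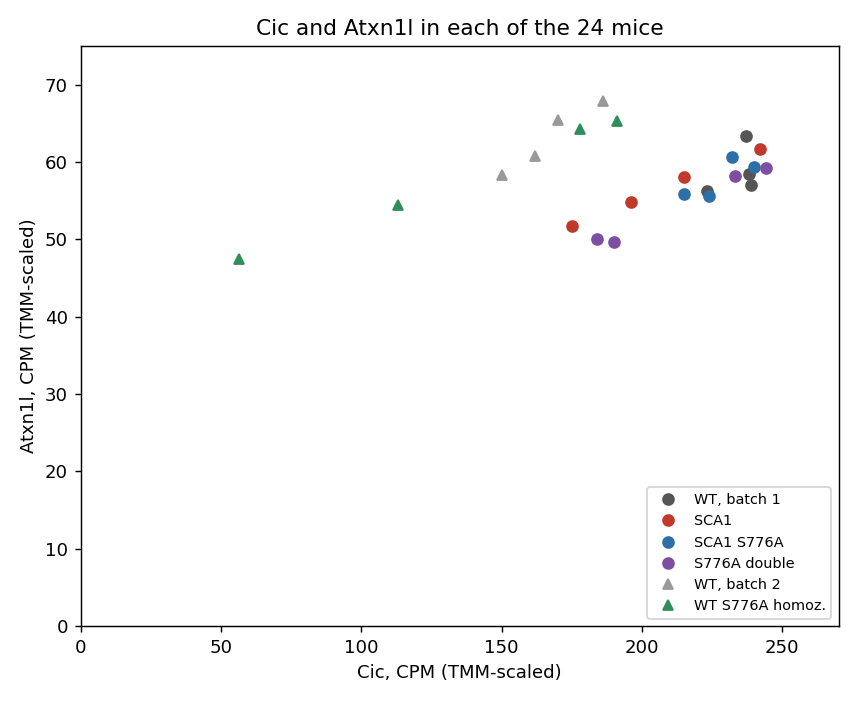
Cic (horizontal axis) against Atxn1l (vertical axis), both in TMM-scaled CPM from 0, with 1 point per mouse, circles for batch 1 and triangles for batch 2. The points of each batch rise together, and the 2 WT S776A homozygous mice at the left, at 56.3 and 113 CPM of Cic, extend the line of batch 2.

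For each gene the 3 closest companions over the 16 mice of batch 1 were sought among the same 11648 genes. Those of Cic were Fbxl18, Zfp236 and Arhgap35 (r 0.96, 0.96 and 0.95). Atxn1l had Rab3gap2, Arsb and Dhx33 (r 0.94, 0.93 and 0.93). For Atxn1 they were Siah1a, Iqcb1 and Alcam, with lower values (r 0.87, 0.86 and 0.84). Rbm17 was closest to Pin4, Dbndd2 and Cfdp1 (r 0.89, 0.89 and 0.88), and U2af2 to Stk11, Kctd15 and Ubtf (r 0.90, 0.89 and 0.87). Hdac3 had Tcea2, Metap1d and 2900011O08Rik (r 0.89, 0.86 and 0.84). No member was among the companions of another.

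Rbm17 (chr2:11585437-11604153, minus strand), the splicing factor of the phosphorylation-dependent complex, was at 62.9, 62.1, 63.7 and 71 CPM in the WT mice of batch 1. It was at 61.2 to 67.9 CPM in SCA1, 61.3 to 70.8 CPM in SCA1 S776A and 60.5 to 71.1 CPM in S776A double mice, overlapping WT in each. Its log2 fold changes were -0.00, -0.01 and 0.02 (standard error 0.07 each), and the 95% intervals ran from -0.16 to 0.17. WT S776A homozygous mice had 56.2, 58.3, 68.3 and 74.8 CPM against 58.4, 60.8, 58.6 and 62.4 CPM in WT. Of these, 2 lay above and 2 below every WT mouse, and the log2 fold change was 0.10 (standard error 0.07, adjusted p = 0.599).

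U2af2 (chr7:5062143-5079938, plus strand) was the steadiest of the 6. The WT mice of batch 1 had 147, 148, 151 and 160 CPM, and the 12 mice with the expanded allele lay between 138 and 151 CPM. The ranges overlapped, although 7 of the 12 lay below every WT mouse. WT S776A homozygous mice lay between 147 and 169 CPM, with 2 of them below the lowest WT mouse of batch 2, where the range was 155 to 171 CPM. The log2 fold changes were -0.05 in SCA1, -0.05 in SCA1 S776A, -0.07 in S776A double and -0.05 in WT S776A homozygous mice (standard error 0.05 each, adjusted p between 0.737 and 1). Their 95% intervals ran from -0.17 to 0.06.

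Hdac3 (chr18:37935844-37955016, minus strand) was at 80.8, 81.7, 78.9 and 76.6 CPM in the WT mice of batch 1 and at 86.1, 82.2, 86.1 and 88.4 CPM in SCA1 mice. All 4 SCA1 mice lay above WT, by 0.11 on the log2 scale (standard error 0.06, 95% interval -0.01 to 0.22, adjusted p = 0.634). In an edgeR fit of batch 1 alone Hdac3 was again 0.11 higher (standard error 0.04, 95% interval 0.01 to 0.20, adjusted p = 0.318). With Atxn1 it was 1 of 2 members without overlap in SCA1 mice, a state shared by 8.76% of tested genes in either direction. SCA1 S776A mice had 84.9, 81.6, 77.4 and 83.9 CPM and S776A double mice 80.4, 85.1, 77.9 and 77.6 CPM, both overlapping WT, with log2 fold changes of 0.04 and 0.01. WT S776A homozygous mice had 60, 72.7, 63.6 and 65.9 CPM against 62.9, 63, 66.8 and 60 CPM in WT (log2 fold change 0.05, standard error 0.06, adjusted p = 0.723). The differences between SCA1 and the S776A genotypes were -0.06 and -0.09 on the log2 scale (95% intervals -0.18 to 0.05 and -0.21 to 0.02). In the fit of batch 1 alone these intervals were -0.16 to 0.03 and -0.19 to 0.00 (edgeR adjusted p = 0.907 and 0.999). A loss of the SCA1 difference was thus not shown.

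Some members differed more between the WT mice of the batches than between any genotype and WT. Hdac3 was at 60 to 66.8 CPM in the WT mice of batch 2 and at 76.6 to 81.7 CPM in those of batch 1, a log2 difference of -0.33 (standard error 0.06, adjusted p = 4.21e-05). It passed the p threshold but not that on the fold. For Cic the WT mice of batch 2, at 150 to 186 CPM, also lay below all of batch 1, with a log2 difference of -0.49 (standard error 0.23, adjusted p = 0.0909). Between the WT batches 17.6% of tested genes were called and 46.7% did not overlap, so 2 of 6 genes without overlap is not above the background. Rbm17, U2af2, Atxn1l and Atxn1 differed by -0.11, 0.10, 0.10 and 0.15. The batch was not given by the labels, and animals, RNA preparation and sequencing cannot be told apart within it.

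S776A on unexpanded copies, with and without an expanded allele, was compared as an interaction. It was the S776A double against SCA1 S776A difference minus the WT S776A homozygous against WT difference. The first difference edits the only 2Q copy of a mouse and the second edits both 2Q copies. They also come from different batches, so the interaction does not compare equal doses of the edit. For Atxn1 it was -0.00 (standard error 0.12), for Atxn1l 0.03, for Cic 0.21 (standard error 0.32), for Rbm17 -0.08, for U2af2 0.03 and for Hdac3 -0.08. The mouse at 56.3 CPM of Cic decided the value for Cic, which turned to -0.04 (standard error 0.19) without it. The values for Atxn1l and Rbm17 were then -0.05 and 0.00. With other single mice left out, that for Atxn1l (standard error 0.12 with all mice) ran from -0.01 to 0.10. The lowest adjusted p among the 6 was 0.997. Of all genes tested 0% were called, and 648 had an unadjusted p under 0.05.

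Further genes of the same pathways were taken from lists of known partners and readouts. Of 4 genes of the HDAC3 corepressor complex, Ncor1, Tbl1x, Tbl1xr1 and Gps2, 0 were called in any genotype. Ncor1, the scaffold that holds HDAC3, was at -0.08, -0.05, -0.06 and -0.07 in SCA1 mice, SCA1 S776A mice, S776A doubles and WT S776A homozygotes (standard error 0.07 each). Tbl1xr1, another core subunit, had the highest value in each, from -0.02 in S776A doubles to 0.06 in SCA1 S776A mice. The medians of this list were between -0.07 and -0.00, and those of all tested genes between -0.00 and 0.01.

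Of 7 splicing partners of RBM17 and U2AF2, 0 were called, with medians between -0.00 and 0.06. Sf3b1, the branch point factor, was at 0.12 in SCA1 mice (standard error 0.06). In WT S776A homozygous mice U2af1 and Rbm39 were at 0.15 and 0.17, and Sf1 at -0.17, each with an unadjusted p under 0.05, a level that 9.98% of genes reached there. Cherp, whose protein forms a complex with RBM17, had the lowest value of this list in SCA1, S776A double and WT S776A homozygous mice, at -0.09, -0.07 and -0.21. The homozygous values rested on the mouse at 56.3 CPM of Cic, which had the highest U2af1 and Rbm39 (64.1 and 405 CPM) and the lowest Sf1 and Cherp (the latter 32.2 CPM) of its genotype. Without it, U2af1, Rbm39, Sf1 and Cherp were at 0.06, 0.06, -0.09 and -0.06, and 0 of the 7 had an unadjusted p under 0.05.

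Of 8 other transcription factors and cofactors that bind ATXN1, 6 were tested and 0 called. Rora, a nuclear receptor needed by Purkinje cells, was lowest in SCA1 mice at -0.21 (standard error 0.08, unadjusted p = 0.0184). An unadjusted p under 0.05 was reached by 8.25% of all genes there. The list had a median of -0.02 in SCA1 mice, with Pqbp1 highest at 0.05. In SCA1 S776A and S776A double mice Rora was at -0.04 and -0.06. WT S776A homozygous mice had Anp32a highest at 0.19 and Rbpj lowest at -0.07. Without the mouse at 56.3 CPM of Cic, Anp32a was at 0.09. The 5 genes listed for ATXN1 abundance and turnover included 0 called genes. Among them Stub1, which encodes a ubiquitin ligase, was at -0.03, -0.05 and -0.06 in SCA1 mice, SCA1 S776A mice and S776A doubles (standard error 0.06 each). Pum2, an RNA-binding repressor, had the highest value of this list in each genotype, from 0.04 in SCA1 mice to 0.11 in WT S776A homozygous mice (standard error 0.06 each). Its homozygous value was 0.05 without the mouse at 56.3 CPM of Cic. Ubqln4, a ubiquitin-binding protein, was at -0.17 in WT S776A homozygous mice (standard error 0.08, unadjusted p = 0.0298), and at -0.08 without the same mouse.

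The 7 readout genes of Capicua, which it represses, included 0 called genes in every genotype. Their median log2 fold changes were 0.09 in SCA1, 0.18 in SCA1 S776A and 0.13 in S776A double mice, with 6, 6 and 5 of 7 values above 0. Dusp4, a phosphatase of the MAP kinase pathway, had the highest value in each, at 0.38, 0.48 and 0.48 (standard error 0.30). In WT S776A homozygous mice the median was -0.17, with 2 of 7 above 0 and Spry4, an inhibitor of the same pathway, lowest at -0.43 (standard error 0.38). Etv5, an ETS transcription factor, was at -0.41 there (standard error 0.19, unadjusted p = 0.047). Without the mouse at 56.3 CPM of Cic, Etv5 was at -0.44 (standard error 0.22, edgeR unadjusted p = 0.0634). The median of the list was then -0.22 with 1 of 7 above 0. So these values did not shrink, although 0 of the 7 then had an unadjusted p under 0.05. Between the WT batches 3 of the 7 were called, Etv5, Dusp6 and Spred1, at 0.69, 0.62 and 0.61, where 17.6% of all tested genes were called.

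**Figure D4:**
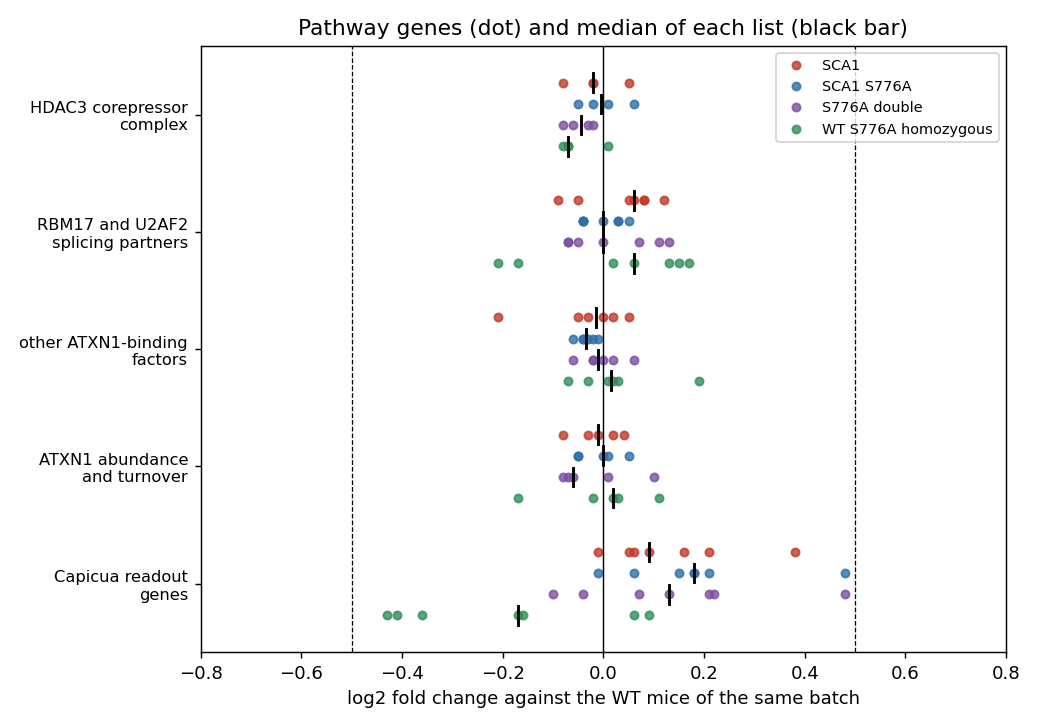
Log2 fold change (horizontal axis) of each tested gene of the 5 pathway lists (dots) in each genotype relative to batch-matched WT mice, with the median of each list as a black bar and dashed lines at the fold threshold of 0.5. No dot lies outside the dashed lines, and the readout genes of Capicua spread most.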

How the data were processed

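The authors trimmed reads with Trimmomatic 0.36, aligned them with STAR 2.7.2d to GRCm38.p6 and deposited the whole-number counts that STAR gave for every gene, not normalized and from before the batch correction of their methods. The unstranded counts were used. Of 54232 gene identifiers, 52566 matched GENCODE M21 with their version, 1599 (Hdac3 among them) without it, and 67 did not match. Coordinates, exon lengths and sequences are from that annotation of GRCm38. Between 4.02% and 5.36% of fragments were unmapped.

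Batches were inferred by clustering (k-means, k = 2, 50 starts) of 4 shares per library (unmapped, multimapping, outside genes, ambiguous), with a mean silhouette of 0.634. Fragments outside genes were 9.52% to 12% in batch 1 (16 mice) and 5.23% to 6.31% in batch 2 (8 mice). Counts were scaled by TMM (factors 0.944 to 1.06) and tested in R 4.3.3 with the robust quasi-likelihood test of edgeR 4.0.16 with genotype and batch in 1 fit of 24 mice, after its expression filter, with Benjamini-Hochberg adjustment over 22502 genes. This differs from the authors' ComBat-seq and DESeq2, which was an alternative (sva 3.50.0, DESeq2 1.42.0). The thresholds, adjusted p under 0.01 and absolute log2 fold change over 0.5, are those of the study. FPKM is CPM divided by the exon length in kilobases, and correlations used log2 CPM with a prior count of 2. For pairs of mice of a genotype and batch, chi-square divided by its degrees of freedom was 7.87 to 198, so mice differed beyond counting error, and the median biological coefficient of variation was 12.5%. Nothing in the labels names litters or separate days, so p-values measure the spread between these mice.

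The genes named are the 6 members, genes overlapping them, the 3 closest companions of each, and genes of pathway and cell type lists. Of these lists, the highest or lowest gene is given only for some lists and genotypes. The members and lists were chosen with earlier results of these data known. The test was tested on simulated data. Alternatives were other normalizations, filters, tools and thresholds, no batch term, 1 batch only, both strands summed, an Xist covariate, and each mouse left out. Values without the WT S776A homozygous mice or 1 of them for spreads, the interaction and the pathway lists were added after seeing the data. Another counted feature, 1 in number, and 2 genes of the pathway lists are not reported here.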

Additional observations from a re-analysis of the deposited data

Results flagged for a closer look

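Each of the 6 genes was examined in each genotype and batch for a mouse standing away from its group, which made 36 groups, of which 1 was flagged while chance gives 1.8. In the WT mice of batch 1, 1 mouse had a log2 CPM of Cic of 7.80, against 7.89 to 7.90 in the other mice (gap over range 0.89, n = 4).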

How the results depend on the processing

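No member was called in any genotype comparison under any of the 9 refitted alternatives or with any mouse of the groups compared left out (0 in each). The reported fit also had 0 at an adjusted p under 0.05 without a fold threshold. Some alternatives had members under 0.05. Among them were Atxn1 after ComBat-seq and DESeq2, given below, and Hdac3 pooled over expanded-allele mice without a batch term (edgeR, adjusted p = 0.0356). Between the WT batches 0 members passed both thresholds under any setting that allows this comparison. Without a fold threshold, 1 member, Hdac3, had an adjusted p under 0.05, as it did under each of these settings (1.3e-08 to 0.00032), and Atxn1 joined it without WT replicate 5 (adjusted p = 0.039). Relative to Gapdh, the single-gene difference of Atxn1 was 0.12 in SCA1 and 0.23 in SCA1 S776A mice, neither with an exact permutation p under 0.05. Mean Gapdh was higher than in WT mice in both genotypes, and the cause of that difference was not tested. Of 432 single-gene log2 fold changes under the 9 alternatives, 11 differed in sign from the reported value and 9 moved by more than its standard error. Without a batch term, the fold changes of Hdac3 were 0.26, 0.20, 0.17 and -0.12 in SCA1 mice, SCA1 S776A mice, S776A doubles and WT S776A homozygotes and that of Cic in the last was -0.57, since WT mice of the other batch then enter. The adjusted p of Atxn1 over the alternatives was 0.126 to 0.676 in SCA1, 0.0847 to 0.984 in SCA1 S776A, 0.0155 to 0.573 in S776A double and 0.000751 to 0.184 in all expanded-allele mice, lowest after ComBat-seq and DESeq2 in each. That setting called 123, 33 and 48 genes of all tested in SCA1 mice, SCA1 S776A mice and S776A doubles and 99 in WT S776A homozygous mice, against 39, 3, 6 and 0 reported. DESeq2 with the batch as a covariate called 66, 9, 19 and 0, and fits of 1 batch only called 65, 0, 11 and 0. With 1 mouse left out, Atxn1 was at 0.17 to 0.24, 0.23 to 0.32, 0.22 to 0.37 and -0.05 to 0.07 in the 4 genotypes in the same order. No paired analysis was possible because the labels number single mice and give no number common to genotypes. The standard error of Cic was 0.23 in the fit of all mice and 0.09 in batch 1 alone.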
